A study of Mus musculus with 16 samples.

Results

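Iron and heme handling was described through 10 genes in adipose tissue macrophages of lean and obese mice: Slc40a1, Hmox1, Tfrc, Fth1, Slc11a1, Slc11a2, Cp, Ireb2, Trf and Blvrb. The genes were chosen by name, and a probe set (a group of array probes read as one value) was used where one of them was its only gene symbol. The rule found 26 probe sets of 45101, for 9 of the 10 genes, out of 18193 genes with such a probe set. Of these, 3 were control probe sets for Tfrc and stayed out of the fit, and 21 of the other 23 passed the filter on low values. Trf, the gene of transferrin, shared its 1 probe set with Srprb and has no value here.

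RNA was measured on 16 Affymetrix mouse genome arrays of 1 design, 4 in each of 4 groups. Both kinds of cell were sorted as positive for F4/80 and CD11b; FBC cells were also positive for CD11c, and FB cells lacked it. The cell type field of the FBC labels reads CD11c-+, where their description gives CD11c+. Lean mice were C57BL/6J with the genotype Lep +/+ and obese mice C57BL/6J with Lep ob/ob, all 12 to 14 weeks old, and the cells were sorted from perigonadal adipose tissue. The obese animals lack functional leptin from birth, so the comparison is of a genotype and not of a diet. The RNA of every sample went through 2 rounds of amplification. The series text gives 4 lean and 4 obese mice for the 16 samples, so the FB and FBC cells of a genotype came from the same 4 mice, but the labels do not tie an array to a mouse.

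Macrophages take up iron bound to transferrin through the transferrin receptor, and recover it from the heme of engulfed red cells. Heme oxygenase opens the heme ring, biliverdin reductases convert the resulting pigment, ferritin stores the iron and ferroportin, encoded by Slc40a1, exports it. Iron regulatory proteins bind hairpins in mRNAs when iron is scarce: the transferrin receptor mRNA is then protected from decay, and ferritin and ferroportin mRNAs are translated less. In adipose tissue, macrophages rich in iron have been described beside those that gather in obese tissue.

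The sorted cells carried macrophage RNA on every array: all 10 macrophage markers of a fixed list lay above the array median on all 16 arrays. Itgax, which encodes CD11c, ran from 8.55 to 9.31 in the 8 FB arrays and from 9.69 to 11.48 in the 8 FBC arrays (log2 values). Signs of other cells were present. The 12 fibroblast markers were all tested, 7 of them lay above the median on all arrays, and the log2 of their summed level was 11.75 to 14.55 in lean FB, 11.05 to 13.91 in lean FBC, 11.29 to 11.78 in obese FB and 11.56 to 13.96 in obese FBC. In obese against lean FB, 5 of the 12 were called lower, where 5.89% of all genes tested were called in either direction. Of 8 adipocyte markers on the array 5 were tested. The sums over the 8 were 10.89 to 12.53, 10.44 to 12.67, 8.80 to 9.01 and 8.99 to 9.81 in the same order of groups. Only Car3 of the 8 lay above the median on all arrays. It read 10.12 to 12.55 in lean and 7.12 to 9.09 in obese arrays, so the lean sums mostly reflect this gene. Of the 11 erythroid genes of the list 6 were on the array, and Epb42, Slc4a1, Rhag and Klf1 lay above the median on no array. Of the other lists, in the same comparison, 2 of 5 adipocyte, 3 of 8 mesothelial, 1 of 5 endothelial and 2 of 3 T and NK cell markers tested were called lower, 1 of 7 neutrophil markers higher and 1 lower, and by limma 0 of 2 eosinophil, 0 of 2 B cell, 0 of 3 mast cell, 0 of 1 erythroid and 0 of 10 macrophage markers. Of these last lists, 1 B cell marker had an unadjusted p under 0.05. A further sign concerned RNA quality. The actin control, as its 3' over its 5' probe set, read 53.3, 48.0 and 45.0 on lean FB array 4, lean FBC array 4 and obese FB array 4. On the other 13 arrays it read 1.15 to 10.9. The same ratio of the Gapdh control was 26.5, 41.5 and 28.0 on the 3 arrays. It was also 28.1 on obese FBC array 3, which is kept among the 13, and 3.05 to 14.2 on the rest. The 3 arrays of high actin ratio were low for several of the genes below, and values without them are given beside the results they move. Lean FB array 4 also stood out in eosinophil markers. It read 11.98 for Siglecf, 9.43 for Ccr3 and 8.08 for Il5ra. The other lean FB arrays read 7.98 to 8.53, 5.31 to 5.86 and 4.40 to 5.19. Epx, Prg2 and Prg3 lay above the median on no array. The part of other cells in the values of lean FB array 4 was not tested.

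**Figure D1:**
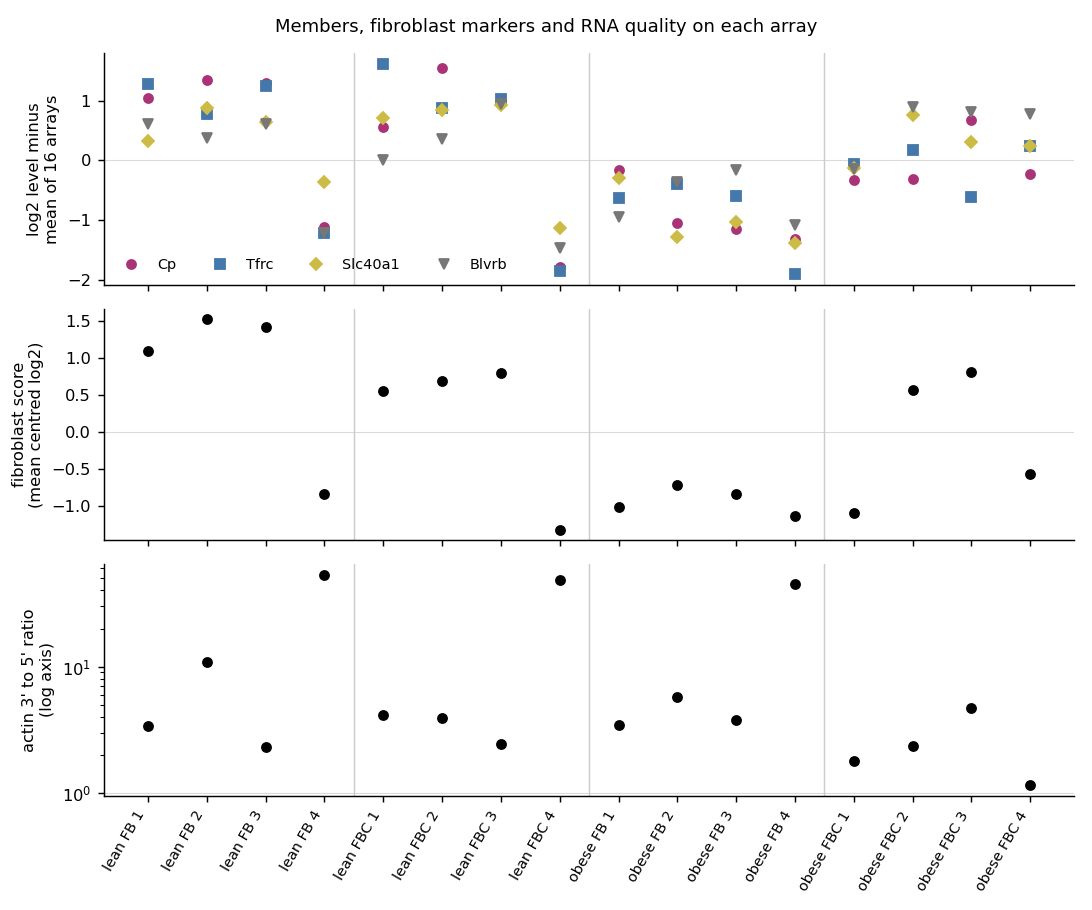
Per-array values over the 16 arrays in their 4 groups. Shown are the log2 levels of Cp, Tfrc, Slc40a1 and Blvrb minus their mean of the 16 arrays. Below are the mean centred log2 level of the fibroblast marker list and the actin 3' to 5' ratio on a log axis. The 3 arrays with ratios of 45.0 to 53.3 all carry number 4, and each of these genes was lowest of its group there.

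Levels are given as log2 of the quantile-normalized intensity plus 16, and a difference is a difference of mean log2 levels with its standard error. A gene was called where limma's adjusted p (Benjamini-Hochberg over the 11908 genes tested) was under 0.05. All 9 genes with a value were tested, and all 9 lay above the array median on all 16 arrays. In obese against lean FB, 1 of the 9 was called, beside 5.89% of all genes tested; it was higher, as were 1.81% of all genes. In obese against lean FBC 1 of 9 was called, beside 14.1%, and it was again higher, as were 8.12% of all genes. In FBC against FB 0 of 9 were called by limma in lean mice and 0 in obese mice, beside 0.193% and 8.39%, with 0 and 3 at an unadjusted p under 0.05. Limma called 0 of 9 for an obesity effect that differed between the cell types, beside 0.160% of genes, with 1 at an unadjusted p under 0.05. The median difference of the 9 genes was -0.74 in obese against lean FB, where that of all genes tested was 0.03, and -0.04 in FBC, where that of all genes was 0.08. By the same measure FBC against FB in obese mice gave a median of 0.41 beside 0.08.

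Without the 3 arrays of high actin ratio the counts were larger, for these genes and for the whole array. Of the 9 genes, 6 were then called in obese against lean FB, 1 higher and 5 lower, beside 17.3% of 11636 genes, 7.14% higher and 10.2% lower. The median difference of the 9 genes was then -1.01 in FB and -0.39 in FBC, where that of all genes was 0.05 and 0.09. In FBC 4 were called, 1 higher and 3 lower, beside 21.8%, 12.3% higher and 9.45% lower. Single arrays moved the count in FB too: it was 4 without lean FB array 4, 3 without lean FBC array 4, and 0 by limma without lean FB array 2 or 3 or obese FB array 2 or 3 (2, 2, 4 and 3 genes at an unadjusted p under 0.05). Between the obese cell types it was 1 without lean FB array 4, lean FBC array 4 or obese FB array 1. In FBC against FB of obese mice 2 were called, both higher, beside 11.7% called and 7.31% higher, and in lean mice 0 were, beside 0.103%.

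**Figure D2:**
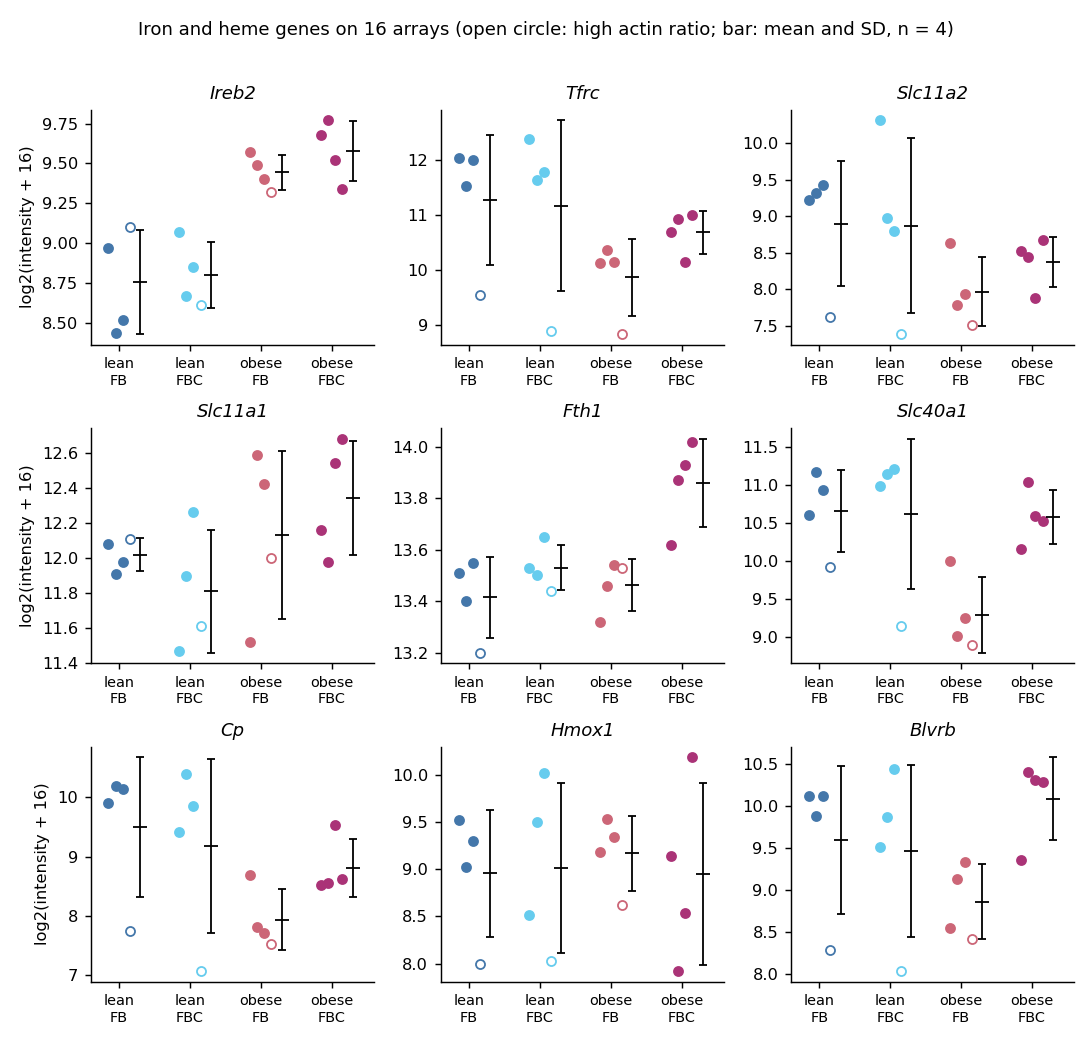
Log2 level of each of the 9 genes on every array, by group, with the group mean as a line and the arrays of high actin ratio marked. Ireb2 is the gene whose obese and lean arrays do not overlap in FB or in FBC.

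Ireb2 encodes iron regulatory protein 2, an RNA-binding regulator of ferritin and transferrin receptor mRNAs, and its mRNA was higher in obese mice in both cell types. Its log2 level was 8.97, 8.44, 8.52 and 9.10 on lean FB arrays 1 to 4 and 9.57, 9.49, 9.40 and 9.32 on the obese FB arrays. Lean FBC arrays gave 9.07, 8.67, 8.85 and 8.61, and obese FBC arrays 9.68, 9.77, 9.52 and 9.34. In each cell type every obese array lay above every lean array, as it did in one direction or the other for 11.8% of genes in FB and 20.0% in FBC. The increase was 0.69 ± 0.18 in FB (1.61-fold, limma adjusted p = 0.0324) and 0.78 ± 0.18 in FBC (1.72-fold, limma adjusted p = 0.00964). FBC and FB cells of one genotype overlapped: the 95% interval of their difference ran from -0.34 to 0.42 in lean and from -0.25 to 0.51 in obese mice. The call in FB was lost with median centring (adjusted p = 0.0524), with only the groups compared in the fit (0.0784) and without any of lean FB arrays 2 and 3 and obese FB arrays 1, 2 and 3 (0.0727 to 0.128). The call in FBC held in all 31 other settings, with adjusted p of 0.000533 to 0.0354. On the 13 arrays of lower actin ratio the increase was 0.83 in FB (adjusted p = 0.00655) and 0.71 in FBC (0.0108).

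Tfrc encodes the transferrin receptor, which carries iron-loaded transferrin into the cell. Its probe set with the highest mean read 12.04, 11.53, 12.00 and 9.54 in lean FB and 10.12, 10.36, 10.15 and 8.84 in obese FB. In FBC it read 12.37, 11.63, 11.78 and 8.90 in lean and 10.69, 10.93, 10.14 and 11.00 in obese mice. The first 3 lean arrays of each cell type were above all obese arrays, and array 4, of high actin ratio in lean FB, lean FBC and obese FB, was the lowest of its group in these 3 groups. The difference of -1.41 ± 0.64 in FB did not pass (limma adjusted p = 0.227, 95% interval -2.77 to -0.05), nor did -0.48 ± 0.64 in FBC (adjusted p = 0.665). Without the 3 arrays it was -1.62 in FB (adjusted p = 0.000496) and -1.22 in FBC (adjusted p = 0.00238). Leaving out lean FB array 4 alone gave -1.98 in FB (adjusted p = 0.0394).

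A second Tfrc probe set had a smaller standard error. It read 8.99, 8.38, 8.53 and 7.19 in lean FB and 5.83, 6.47, 6.57 and 7.01 in obese FB, with no overlap. Lean FBC gave 8.23, 8.47, 8.35 and 6.46, and obese FBC 6.68, 6.84, 6.25 and 7.20, where lean array 4 fell inside the obese range. With all 21070 probe sets tested singly, of which 4.14% were called in FB and 11.2% in FBC, its difference was -1.80 ± 0.43 in FB (limma adjusted p = 0.0256) and -1.13 ± 0.43 in FBC (adjusted p = 0.0996). Another Tfrc probe set was below the median on all arrays. The 3 Tfrc control probe sets read along the transcript: the 5' and middle sets lay above the median on 0 arrays and the 3' set on 15.

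The stretch just before the start of Tfrc is shown because it holds the core of the hypoxia response element, the letters ACGTG, at its end. It lies at chr16:32608646-32608898 on the plus strand of GRCm38.p6 (from RefSeq) and is printed 5' to 3' with that match in capitals; the last 3 bases lie past the annotated start. The stretch before Cp, at chr3:19956804-19956932 on the plus strand, is shown for comparison and has no match to ACGTG.
Tfrc: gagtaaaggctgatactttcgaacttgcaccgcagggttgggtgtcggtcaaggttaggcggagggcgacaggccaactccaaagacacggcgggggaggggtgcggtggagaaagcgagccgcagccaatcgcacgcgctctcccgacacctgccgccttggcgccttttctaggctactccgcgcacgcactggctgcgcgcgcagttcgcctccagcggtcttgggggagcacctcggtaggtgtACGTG
Cp: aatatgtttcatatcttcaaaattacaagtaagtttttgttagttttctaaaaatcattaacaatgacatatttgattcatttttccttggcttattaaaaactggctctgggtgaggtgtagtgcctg
The letters ACGTG, searched on both strands, were in 19.6% of 32851 windows that run from 250 bases before a start to 50 after it. They were in 3 of the 10 windows of the 6 iron and heme genes with a window, those of Tfrc and Blvrb. The antioxidant response element, searched as TGACNNNGC on both strands, was in 12.4% of windows and in 0 of these 10. Slc40a1, Hmox1, Slc11a2 and Trf had no window to search. A match is a match of letters and was not tied to binding here.

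Slc11a2 encodes DMT1, which moves ferrous iron out of the endosome after transferrin uptake. It read 9.22, 9.32, 9.43 and 7.62 in lean FB and 8.63, 7.79, 7.94 and 7.52 in obese FB. Lean FBC gave 10.31, 8.97, 8.80 and 7.39, and obese FBC 8.52, 8.44, 7.88 and 8.67. Here too arrays 1 to 3 of the lean groups were above every obese array of their cell type, and lean array 4 was within or below the obese range. The differences were -0.93 ± 0.49 in FB (limma adjusted p = 0.308) and -0.49 ± 0.49 in FBC (adjusted p = 0.547), and without the 3 arrays -1.19 (adjusted p = 0.0283) and -0.97 (adjusted p = 0.0456). All 4 of its probe sets were below 0 in both cell types. Tested singly, 1 of them, not the brightest, passed in FBC with -0.95 ± 0.30 (adjusted p = 0.0472).

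Slc11a1 encodes NRAMP1, the metal transporter of the macrophage phagosome. Its levels lay in a narrow range: 11.91 to 12.11 in lean FB, 11.47 to 12.26 in lean FBC, 11.52 to 12.59 in obese FB and 11.98 to 12.68 in obese FBC. All 4 ranges overlapped. The difference in FBC was 0.53 ± 0.24 (limma adjusted p = 0.153, 95% interval 0.02 to 1.03).

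Fth1 encodes the heavy chain of ferritin, the iron store of the cell. Its arrays read 13.51, 13.40, 13.55 and 13.20 in lean FB and 13.53, 13.50, 13.65 and 13.44 in lean FBC. Obese FB gave 13.32, 13.46, 13.54 and 13.53, and obese FBC 13.62, 13.87, 13.93 and 14.02. The 4 obese FBC arrays lay above all obese FB arrays, and 3 of them above all lean FBC arrays. Such a separation of FBC from FB in obese mice was seen for 17.7% of all genes, and for 3 of the 9 genes here. The difference was 0.40 ± 0.15 against obese FB (limma adjusted p = 0.0994) and 0.33 ± 0.15 against lean FBC (adjusted p = 0.145), and neither passed. Against obese FB it did pass with eBayes trend and robust settings (limma adjusted p = 0.0217), array weights (0.0382) and a random block (0.0463). That block joined arrays of one genotype and number, which the labels do not tie to a mouse. Against lean FBC it passed with the first 2 of these (0.04 and 0.0235). The direction depended on the scaling: without quantile normalization the values were -0.07 and -0.12, and with median centring -0.08 and -0.16. A second Fth1 probe set read 11.85, 11.99, 12.33 and 11.71 in obese FB and 12.80, 12.03, 11.52 and 12.96 in obese FBC, so the groups overlapped. Its differences, tested singly, were 0.36 ± 0.33 against obese FB (limma adjusted p = 0.55) and 0.46 ± 0.33 against lean FBC (adjusted p = 0.389).

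Slc40a1 encodes ferroportin, the iron exporter. It read 10.61, 11.17, 10.93 and 9.92 in lean FB, 10.00, 9.01, 9.25 and 8.90 in obese FB, 10.99, 11.14, 11.21 and 9.15 in lean FBC, and 10.16, 11.04, 10.59 and 10.53 in obese FBC. Obese FB was the low group: its highest array, 10.00, was just above the lowest lean FB array, 9.92, and below the lowest obese FBC array, 10.16. The difference was -1.36 ± 0.40 in obese against lean FB (limma adjusted p = 0.0564), and in obese mice FBC exceeded FB by 1.29 ± 0.40 (adjusted p = 0.0583), both short of the threshold. In FBC the 95% interval of the obesity difference ran from -0.90 to 0.81, and without the 3 arrays of high actin ratio, one of which is the low lean FBC array 4, the difference was -0.52 ± 0.25 (adjusted p = 0.144). The difference between the 2 obesity effects was 1.32 ± 0.57 (limma adjusted p = 0.332, 95% interval 0.11 to 2.53). Without the 3 arrays of high actin ratio obese against lean FB gave -1.46 (adjusted p = 0.00166) and FBC against FB in obese mice 1.14 (adjusted p = 0.00821). The obesity difference in FB also passed without lean FB array 4 (adjusted p = 0.0185), lean FBC array 4 (0.00682) or obese FB array 1 (0.0445), and that between the obese cell types without the same arrays (0.0412, 0.00916 and 0.0345). A second Slc40a1 probe set moved less, by -0.33 ± 0.32 in FB (adjusted p = 0.625 tested singly).

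Cp encodes ceruloplasmin, the copper oxidase that loads exported iron onto transferrin. It read 9.90, 10.20, 10.15 and 7.74 in lean FB and 8.69, 7.81, 7.71 and 7.53 in obese FB. Lean FBC gave 9.41, 10.40, 9.85 and 7.07, and obese FBC 8.53, 8.55, 9.54 and 8.63. Arrays 1 to 3 of lean FB were above all obese FB arrays, and lean FB array 4 was among the obese values. The difference was -1.56 ± 0.62 in FB (limma adjusted p = 0.156) and -0.37 ± 0.62 in FBC (adjusted p = 0.74), which turned to 0.04 without lean FBC array 2. Without the 3 arrays these were -1.99 (adjusted p = 0.000776) and -1.06 (adjusted p = 0.0228). In FB it also passed without lean FB array 4 alone (-2.14, adjusted p = 0.0197) or lean FBC array 4 alone (-1.56, adjusted p = 0.0481). The difference between the 2 obesity effects was 1.19 (95% interval -0.66 to 3.04).

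Other Cp probe sets were dim in obese FB. Of 8 probe sets 7 passed the filter, and for 4 of the 7 at least 3 of the obese FB arrays lay below the all-array median of 5.87, so these passed through arrays of other groups. One of them read 8.90, 9.07, 9.15 and 5.32 in lean FB and 5.07, 5.45, 5.37 and 4.81 in obese FB, and another 7.87, 8.12, 8.14 and 6.12 against 4.35, 5.13, 4.26 and 5.37. The groups overlapped for the first, through lean FB array 4, and did not for the second. Their obese values are at the dim end of the arrays, so they are described here with no size of change and no test.

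**Figure D3:**
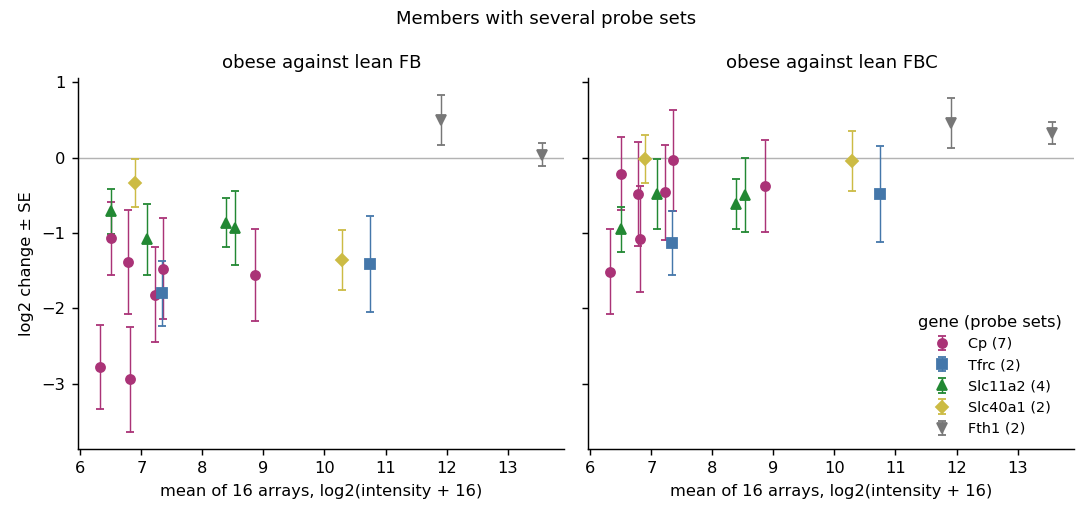
Difference of obese against lean mice (log2, with standard error) in FB and FBC, by mean level of the probe set. Shown are the probe sets that passed the filter for Cp, Tfrc, Slc11a2, Slc40a1 and Fth1, the members with several probe sets. The 7 Cp and 4 Slc11a2 probe sets lie below 0 in both cell types. Several of the Cp probe sets passed the filter through arrays of other groups than obese FB, so their direction in FB is not read as support. The 2 Cp probe sets with the largest falls in FB have obese FB values below the array median of 5.87, so their size is not relied on.

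Hmox1 encodes heme oxygenase 1, the inducible enzyme that opens heme and releases its iron. It varied as much within groups as between them: 7.99 to 9.52 in lean FB, 8.03 to 10.02 in lean FBC, 8.62 to 9.54 in obese FB and 7.92 to 10.19 in obese FBC. All 4 ranges overlapped, and the 95% intervals of the obesity differences ran from -0.80 to 1.22 in FB and from -1.08 to 0.94 in FBC, so differences of that order were not detectable here.

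Blvrb encodes biliverdin reductase B, which acts on heme pigments and on flavins. It read 10.12, 9.88, 10.12 and 8.29 in lean FB, 8.55, 9.14, 9.34 and 8.42 in obese FB, 9.52, 9.87, 10.45 and 8.04 in lean FBC, and 9.36, 10.41, 10.31 and 10.29 in obese FBC. In obese mice every FBC array was above every FB array, by the small gap between 9.34 and 9.36. The difference there was 1.23 ± 0.47 (limma adjusted p = 0.113). The obesity differences were -0.74 ± 0.47 in FB (adjusted p = 0.41) and 0.62 ± 0.47 in FBC (adjusted p = 0.407), the latter 0.14 ± 0.28 without the 3 arrays of high actin ratio (adjusted p = 0.75). The difference between them was 1.36 ± 0.66 (limma adjusted p = 0.391, 95% interval -0.04 to 2.77). Without the 3 arrays Blvrb was called in FB at -1.01 (adjusted p = 0.0307) and in obese FBC against FB at 1.07 (adjusted p = 0.0243).

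**Figure D4:**
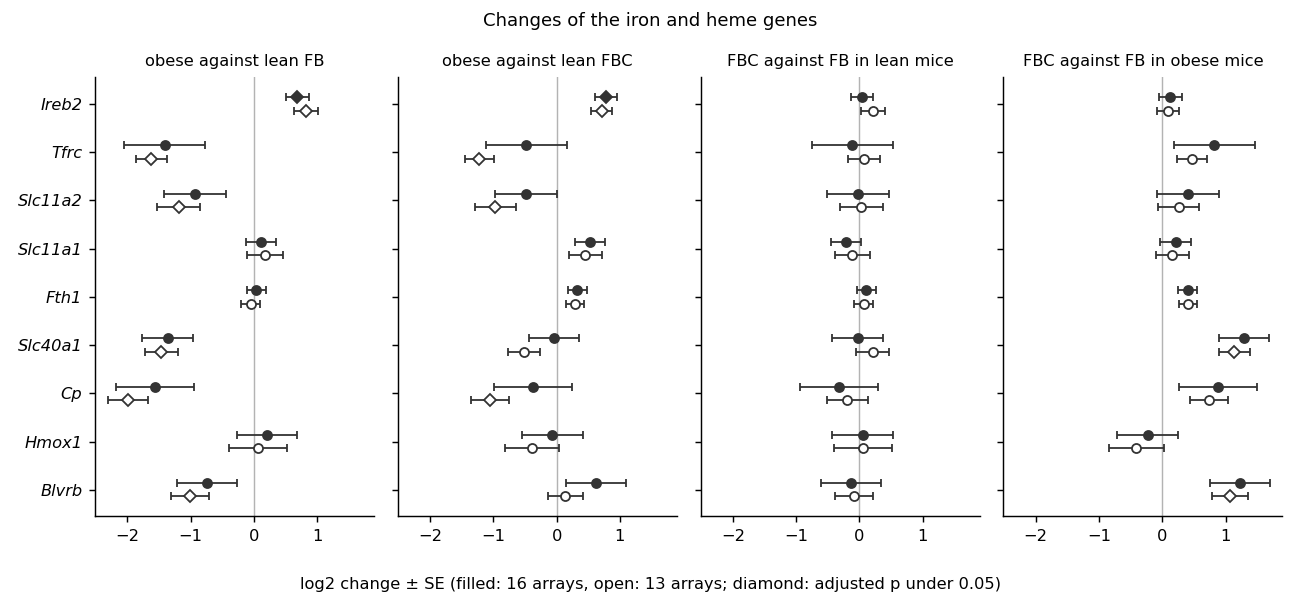
Difference in log2 level with its standard error for the 9 genes, for obese against lean mice and for FBC against FB. Filled points are from all 16 arrays and open points from the 13 arrays of lower actin ratio. Diamonds mark called genes. The 95% intervals of Ireb2 for obese against lean mice, which are not drawn, are 0.31 to 1.07 in FB and 0.39 to 1.16 in FBC.

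In lean mice the differences of FBC from FB lay between -0.32 and 0.11 for the 9 genes, and for 7 of them the direction changed in some other setting. Groups without overlap were seen for 0 of the 9, beside 5.63% of all genes. Their 95% intervals reached from -1.62 for Cp to 1.25 for Tfrc.

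Several of these genes ran together across arrays. Pearson's r over the 16 arrays was 0.92 for Tfrc and Slc11a2, 0.88 for Slc40a1 and Cp and 0.85 for Tfrc and Cp, and without the 3 arrays of high actin ratio it was 0.88, 0.83 and 0.72. The same genes ran with the mean centred level of the fibroblast markers, at r = 0.89 for Cp, 0.83 for Slc40a1, 0.79 for Tfrc, 0.77 for Blvrb and 0.68 for Slc11a2 over 16 arrays, and 0.85, 0.77, 0.70, 0.67 and 0.53 over 13. For Ireb2 it was -0.48 and -0.74. The points share groups and array quality, so these are descriptions. That fibroblast level was 1.10, 1.53, 1.43 and -0.83 in lean FB and -1.01, -0.72, -0.84 and -1.13 in obese FB, and 0.56, 0.70, 0.80 and -1.32 against -1.09, 0.57, 0.81 and -0.56 in lean and obese FBC. The part of the fibroblast markers in the lower Tfrc, Cp, Slc40a1, Slc11a2 and Blvrb levels of obese FB was not tested. In such bulk samples, fewer cells of a type and less RNA per cell cannot be told apart.

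For the 3 genes with the largest moderated F over the 4 groups, which sets the variation between groups against that within them, the most alike genes were found by Pearson's r over the 16 arrays. For Ireb2 these were Mpeg1 (0.937), Tlr13 (0.925) and Gnpnat1 (0.924). Slc40a1 was most like Denn2b (0.950), Fkbp9 (0.939) and Ednrb (0.937), and Fth1 most like Bivm (0.907), Ywhag (0.878) and Dnase1l1 (0.877).

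Of 74 further genes of iron uptake, storage, export, regulation, heme breakdown and synthesis, iron-sulfur assembly and the Nrf2 response, 68 were on the array and 58 were tested. In obese against lean FB 1 rose and 3 fell, all 4 of them uptake genes, and the other 54 did not pass. Over all genes tested, 5.89% were called in that comparison. Cd163, the scavenger receptor for hemoglobin bound to haptoglobin, was 13.36, 13.20, 13.31 and 12.49 in lean FB and 11.48, 10.95, 10.30 and 11.22 in obese FB, with no overlap, and fell by 2.11 ± 0.42 (limma adjusted p = 0.00658). Scara5, a ferritin receptor known from stromal cells, was 9.83, 9.71, 9.85 and 7.19 in lean FB and 5.66, 5.99, 6.01 and 5.56 in obese FB, and was called lower (adjusted p = 0.0204). Its obese FB values lie around the array median of 5.87, so the size of the fall is imprecise and not given. Steap4, a metalloreductase, fell by 2.36 ± 0.64 (adjusted p = 0.0379). Hp, which encodes haptoglobin, rose by 1.88 ± 0.35 (adjusted p = 0.0041), although lean FB array 4 at 10.35 was just above obese FB array 4 at 10.33. The Cd163 and Hp calls held in all 31 other settings. Scara5 was lost with the mean of its probe sets and without lean FB array 1, 2 or 3 or obese FB array 1 (limma adjusted p of 0.0503 to 0.086), and Steap4 with no filter, with a pseudocount of 1 and without any one of lean FB arrays 1 to 3 or obese FB arrays 1 to 4 (0.0524 to 0.132). Without the 3 arrays of high actin ratio 3 of 57 genes tested were higher and 5 lower, beside 7.14% and 10.2% of all genes.

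In obese against lean FBC 5 of the 58 rose and 2 fell. Over all genes tested, 14.1% were called in that comparison. Lrp1, the receptor that takes up heme bound to hemopexin among many ligands, was 10.10, 9.90, 10.21 and 9.50 in lean FBC and 11.24, 11.86, 12.11 and 11.57 in obese FBC, a rise of 1.77 ± 0.33 (limma adjusted p = 0.00242). Abcg2, a transporter that can export porphyrins, rose by 1.20 (adjusted p = 0.00284). Blvra, the other biliverdin reductase, rose by 0.96 (adjusted p = 0.00184), from 10.53 to 10.89 in lean FBC to 11.39 to 11.92 in obese FBC. Slc7a11, the cystine transporter of the Nrf2 list, fell by 1.73 (adjusted p = 0.00214), and Hif1a, the hypoxia-inducible factor, fell by 0.74 (adjusted p = 0.0167). The sixth by size was Nfs1, the cysteine desulfurase of iron-sulfur assembly, at 0.69 (adjusted p = 0.0278). The Lrp1, Abcg2, Blvra and Slc7a11 calls held in all 31 other settings. Hif1a was lost without lean FBC array 2 (adjusted p = 0.0539) or obese FBC array 3 (0.0514), and Nfs1 with the mean of its probe sets and without any one of lean FBC arrays 1, 2 and 4 and obese FBC arrays 1, 3 and 4 (0.0528 to 0.0662). The count fell from 7 to 4 without lean FBC array 2 or obese FBC array 3. Without the 3 arrays of high actin ratio 5 genes were higher and 4 lower, beside 12.3% and 9.45% of all genes. Obese FBC arrays were uneven for Cd163, at 11.09, 12.71, 13.05 and 11.62, and for Scara5, at 5.97, 8.87, 9.40 and 6.00, and arrays 2 and 3, high for both, were also the high ones for the fibroblast markers.

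Between FBC and FB of obese mice 4 of the 58 were higher and 3 lower in FBC, beside 8.39% of all genes called. In lean mice limma called 0, beside 0.193% of all genes, with 7 of the 58 at an unadjusted p under 0.05. The FBC minus FB difference was -2.93 ± 0.35 for Hp (limma adjusted p = 0.000128), with 8.28, 8.10, 8.80 and 8.21 against 11.21, 11.79, 11.76 and 10.33 in obese FB. Lcn2, the siderophore-binding lipocalin, was among the 3 counted as lower. It read 4.08, 5.71, 6.25 and 4.18 in obese FBC and 5.72, 7.42, 7.33 and 7.26 in obese FB. Its level was above the array median on 6 arrays, mostly of FB cells, and 3 of the 4 obese FBC values were below it. It passed the filter mainly through FB arrays, so its call is not relied on, and no size or test is given. Slc7a11 gave -1.56 (adjusted p = 0.00634). Lrp1 was 1.26 higher (adjusted p = 0.0272), Alas1, the first enzyme of heme synthesis, 1.14 higher (adjusted p = 0.0213) and Blvra 0.72 higher (adjusted p = 0.0178). The Hp and Slc7a11 calls held in all 31 other settings, and the Lrp1, Alas1 and Blvra calls were each lost in 5. Without obese FB array 4 Lrp1, Alas1 and Blvra missed the threshold, at limma adjusted p of 0.084, 0.0742 and 0.0544, and the count was 2. The count was 4 without obese FBC array 2 and 12 without lean FB array 4. Without the 3 arrays of high actin ratio it was 11, beside 11.7% of all genes. Hp and Lcn2 are also abundant in neutrophils, and 4 of the 7 neutrophil markers tested were called lower in obese FBC than in obese FB. Their summed log2 level was 10.33 to 12.16 in obese FB and 9.32 to 10.66 in obese FBC, none of the 8 on the array was below the median on all arrays, and their part in these values was not tested.

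A difference of the obesity effect between the cell types was called for 1 of the 58 genes, Slc7a11, beside 0.160% of all genes. It was 6.78, 6.43, 6.36 and 7.55 in lean FB, 6.80, 8.11, 8.09 and 7.47 in obese FB, 7.52, 7.79, 7.62 and 8.21 in lean FBC and 6.53, 5.66, 5.71 and 6.32 in obese FBC. Obese FBC was the low group, with 2 arrays below the array median, so the size is imprecise. The difference of the 2 effects was -2.57 ± 0.45 (limma adjusted p = 0.0418). The call was lost in 16 of 30 other settings, among them without any one of 12 arrays, with adjusted p over all settings of 8.71e-05 to 0.125. The direction was the same in all of them. On the 13 arrays of lower actin ratio 4 of 57 genes were called, beside 2.54% of all genes. They were Slc7a11 (-2.74, limma adjusted p = 0.011), Hp (-2.32, adjusted p = 0.00469), Abcg2 (0.90, adjusted p = 0.0434) and Gsr, which encodes glutathione reductase (-1.98, adjusted p = 0.0407). Gsr was named after its values were seen. With array weights the count was 15, with no share over all genes given for that setting.

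**Figure D5:**
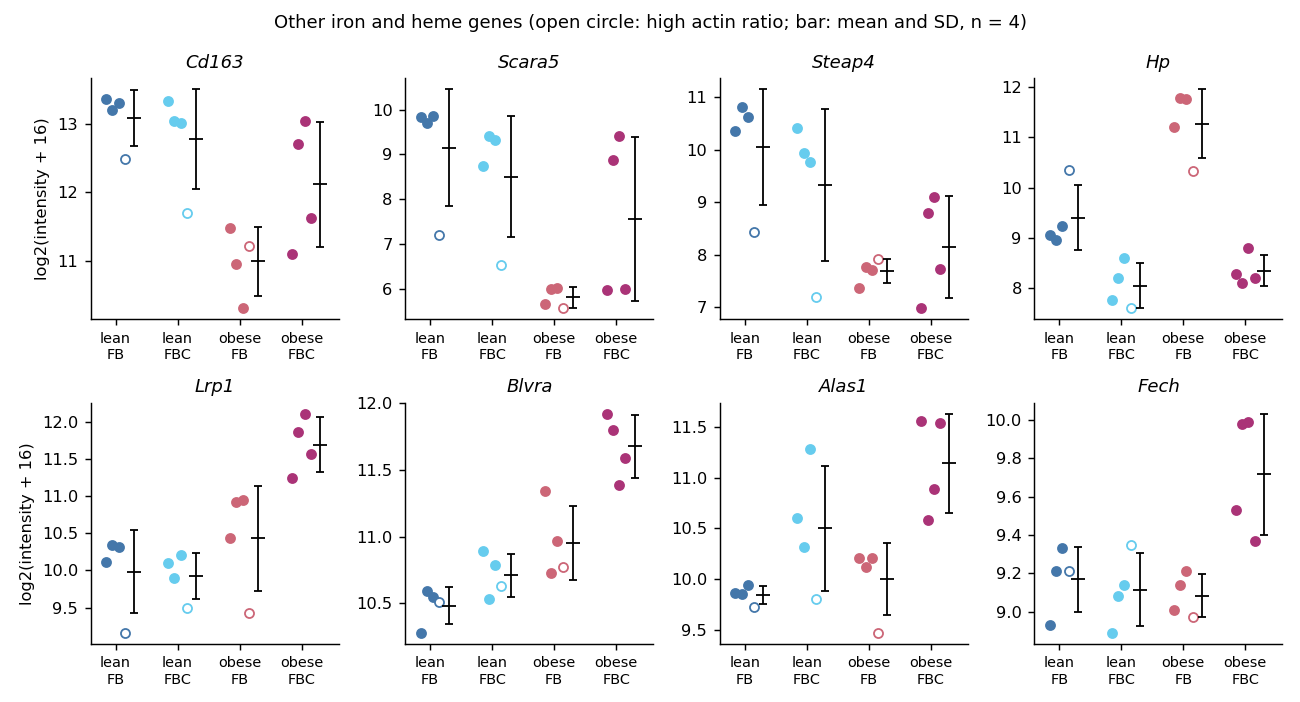
Log2 level of Cd163, Scara5, Steap4, Hp, Lrp1, Blvra, Alas1 and Fech on every array, by group, with the group mean and standard deviation. Arrays of high actin ratio are marked. Scara5, Steap4 and Cd163 fell in FB, and Lrp1 and Blvra rose in FBC.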

How the data were processed

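The authors deposited probe set intensities on a linear scale. The submitters' processing notes name Affymetrix Expression Console, and each array has a 2% trimmed mean of 250. How probes were summarized, and the version, was not given in the sources used here. Intensity is relative to the array's own scale, with no depth, so the number of arrays (4 per group) limits precision. Here log2(intensity + 16) was quantile-normalized. A gene was read from its brightest probe set (by mean) among those with 1 symbol. Genes that exceeded the median of 4 or more of the 16 arrays were tested in 1 limma model of the 4 groups (R 4.3.3, limma 3.58.1; 12 residual degrees of freedom), with Benjamini-Hochberg adjustment over 11908 genes. Sequences and figures used Python 3.11.15, pandas 2.3.3 and matplotlib 3.10.9.

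Members and lists were chosen with earlier results of these data known. Further genes named were the called ones of the lists, at most the 6 largest per comparison; the genes most alike were the 3 of highest r for the 3 members of largest moderated F, clone symbols left out. Erythroid, adipocyte, fibroblast, mesothelial, endothelial, neutrophil, eosinophil, B, T and NK, mast and macrophage marker lists were measured. Residuals of same-numbered lean FB and FBC arrays correlated at 0.135, 0.231, 0.299 and 0.595, the last between arrays of high actin ratio. Lean FB array 1 was most like lean FBC array 3. Obese arrays gave 0.31, 0.033, -0.03 and -0.137, so pairs by number were not established. A block by array number changed no lean call. The fit was tested on simulated data. P-values measure the spread between arrays.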

Additional observations from a re-analysis of the deposited data

Results flagged for a closer look

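A single array stood apart from the other 3 of its group in 7 of 36 gene and group combinations tested, by a rule on the gap to the nearest array that chance meets in about 1 in 20 groups. In 5 of the 7 the array was one of the 3 with a high actin ratio. On lean FB array 4, Slc11a2 was 7.62 (others 9.22 to 9.43), Cp 7.74 (9.90 to 10.20) and Blvrb 8.29 (9.88 to 10.12). On lean FBC array 4, Slc40a1 was 9.15, where the others were 10.99 to 11.21. Obese FB array 4 read 8.84 for Tfrc, below the 10.12 to 10.36 of the others. The remaining 2 concerned obese FBC, with Cp at 9.54 on array 3 (8.53 to 8.63) and Blvrb at 9.36 on array 1 (10.29 to 10.41). The part of RNA quality in these values was not tested, nor that of the eosinophil markers high on lean FB array 4.

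The obesity effect on Slc7a11 differed between cell types, at -2.57 for FBC minus FB (limma adjusted p = 0.0418), with lean means of 6.78 in FB and 7.78 in FBC and obese means of 7.62 and 6.06.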

How the results depend on the processing

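For obese against lean FB, where 1 of the 9 iron and heme genes was called, the count was 0 by limma with median centring (3 had an unadjusted p under 0.05), 2 with eBayes trend and robust settings, 6 with array weights, 2 with the replicate block, 4 with the actin ratio as a covariate, 6 without the 3 arrays of high actin ratio, and 0 to 4 with single arrays left out. With only the groups compared it stayed at 1, but the gene was Slc40a1. For FBC the count of 1 became 2 with trend and robust settings, 3 with array weights, 2 with the actin covariate and 4 without the 3 arrays, and stayed at 1 for each array left out. For FBC against FB in obese mice, where 0 were called, it was 1 with median centring, 1 with trend and robust settings, 3 with array weights, 2 with only the groups compared, 2 with the replicate block, 3 with a random replicate block, 2 without the 3 arrays and 0 to 1 with single arrays left out. For the difference of the 2 obesity effects it was 1 with array weights and 1 with the replicate block. The obese arrays of one number were not shown to be pairs; with that block Slc40a1 had an adjusted p of 0.0203 in FB and 0.0153 between the obese cell types, and Blvrb 0.00434 between them and 0.046 for the difference of the effects. In lean mice limma called 0 in every setting, also with 0 at an unadjusted p under 0.05. Except without the 3 arrays, the share of all genes called in these settings is not given. A larger count is therefore not read as particular to the 9 genes.

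Fth1 turned to -0.12 without quantile normalization and -0.16 with median centring in FBC, and to -0.07 and -0.08 between the obese cell types. Cp in FBC ranged from -1.07 to 0.04 with single arrays left out. The cause was not tested. The same alternatives were run on the other list genes after seeing the data. With array weights, which ran from 0.25 to 6.54, their counts rose to 23 in FB, 21 in FBC, 5 in lean and 16 in obese mice. The share of all genes called with these weights is not given, so the rise is not read as particular to the lists. Across all settings 6 of 9 members kept their direction in FB and 5 in FBC. With 4 arrays a group, the 95% intervals reached more than a log2 of 1 from 0 for most members.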
